A study of Homo sapiens with 9 samples.

Results

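The genes described here are 32 genes of cholesterol and fatty acid synthesis, with the regulators that switch them on and the transporters that send cholesterol out of the cell. They were chosen by name, and a gene was measured when at least 1 probe set on the array carried its symbol and no other. This held for 29 of the 32, out of 11963 genes measured in the same way in the whole series. CYP51A1 and FADS1 had only probe sets shared with another symbol, FDFT1 had none with a single symbol, and these 3 genes were not analysed here. The 29 genes had 57 probe sets, and each gene is represented by its brightest one, judged by the mean over all arrays. RNA was measured on 9 Affymetrix arrays from cultures of U251 (U251MG), a long-established line from a human glioma, with 3 cultures in each of 3 groups. One group was given Oligofectamine, a lipid transfection reagent, with 100 nM of an siRNA that targets WT1, the Wilms tumor transcription factor. The second received a non-targeting (scrambled) siRNA at 100 nM with Oligofectamine, and the third received Oligofectamine alone, named reagent below. Transfection lasted 4 h. All 3 groups were therefore exposed to the lipid reagent, all came from 1 line, and no culture without reagent was analysed here.

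Cells build cholesterol from acetyl-CoA through mevalonate, the isoprenoid diphosphates, squalene and lanosterol, and they build fatty acids from the same acetyl-CoA. Transcription of both pathways is driven by the SREBP factors, which the protein SCAP carries out of the endoplasmic reticulum when membrane sterol is low and which the INSIG proteins hold back when sterol is plentiful. Sterol surplus acts in the opposite direction on ABCA1 and ABCG1, the export pumps, which are induced by the oxysterol-sensing LXR receptors, and glial cells both make cholesterol and export it on lipoproteins.

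The 3 cultures of each group carry the replicate numbers 1, 2 and 3, and arrays of the same number went together across groups. The sources used here do not say what a number stands for, such as a day, a plating or a batch of arrays. Over all probe sets, 71.4% of the sum of squares lay between numbers and 15.6% between groups, so groups were compared within numbers (limma, with the number as a block). Values are log2 expression, a difference of 1 being a doubling, and a call is an adjusted p under 0.05 over all probe sets. The difference between the 3′ and 5′ control probe sets of ACTB, a sign of RNA quality, was 0.26 to 0.505 on number 3 arrays, 0.0507 to 0.0887 on number 1 arrays and 0.554 to 0.677 on number 2 arrays. As a check of the line, 9 glioma and astrocyte markers had means between 4.39 (AQP4) and 13.66 (VIM), with CD44 at 13.09, GFAP at 6.95, and S100B and OLIG2 as dim as 4.83 and 4.47. The 4 leukocyte markers had means between 4.56 (PTPRC) and 6.35 (CD3E), and the 6 endothelial and epithelial markers between 4.29 (EPCAM) and 6.09 (KRT5).

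The siRNA target itself was checked first, on the brighter of its 2 probe sets. This probe set lay at the 18.4 to 51.8 percentile of probe sets on the arrays. How near to background its lowest values lay was not tested. WT1 measured 4.76, 5.09 and 4.82 on the WT1 siRNA arrays, 5.59, 5.89 and 5.41 on the scrambled siRNA arrays and 6.05, 6.58 and 5.89 on the reagent arrays (numbers 1, 2 and 3). Every WT1 siRNA array lay below every control array. The scrambled siRNA arrays barely cleared the reagent arrays: the highest scrambled siRNA array was at 5.89 and the lowest reagent array at 5.894. Within each number the scrambled siRNA array lay below the reagent array. WT1 fell by 0.74 against scrambled siRNA (1.67-fold, adjusted p = 0.00336) and by 1.29 against reagent (2.44-fold, adjusted p = 0.000619), and it was also lower with scrambled siRNA than with reagent (-0.55, adjusted p = 0.0164, limma). Without the number as a block these adjusted p-values were 0.672, 0.394 and 1. Without all arrays of number 2 they were 0.0795, 0.0762 and 0.305, and the difference between scrambled siRNA and reagent was also lost without any 1 scrambled siRNA array or without reagent replicate 1 or 2 (adjusted p = 0.0607 to 0.13). The second WT1 probe set, with a mean of 5.04, did not pass in any of the 3 comparisons, with differences of -0.18 between WT1 siRNA and scrambled siRNA (adjusted p = 0.42), -0.15 between WT1 siRNA and reagent (adjusted p = 0.516) and 0.03 between scrambled siRNA and reagent (adjusted p = 0.959). With the mean of the 2 probe sets, the difference between scrambled siRNA and reagent was -0.26 and did not pass (adjusted p = 0.193), while WT1 siRNA still passed against both controls.

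By the brightest probe set of each gene, MSMO1 was the 1 gene of the 29 called with WT1 siRNA against scrambled siRNA. It fell, and 3.7% of all genes were called in this comparison in either direction. MSMO1 has a single probe set, so no other could be set beside it. ABCA1, again by its brightest probe set, was higher with either siRNA than with reagent. Of the 4 SCD probe sets, 2 dimmer ones were higher with WT1 siRNA than with either control, while the brightest was not called. Larger differences lay between replicate numbers: most enzymes of both pathways were higher on the number 3 arrays than on the others, by up to 3.36-fold, while ABCA1 was lower there. In bulk RNA, fewer cells expressing a gene and less RNA per cell cannot be told apart, which holds for every value below.

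Mean levels over the 9 arrays ran between 4.64 for ABCG1 and 11.32 for ACLY, the enzyme that makes cytosolic acetyl-CoA from citrate. SCD, the stearoyl-CoA desaturase, had a mean of 10.52, FDPS, which makes farnesyl diphosphate, 10.38, and MSMO1, the sterol methyl oxidase acting after lanosterol, 10.08. ABCG1 and TM7SF2, a sterol reductase with a mean of 5.86, were the only measured genes of the 29 with a mean under 6. These are brightnesses of different probe sets and give no order of abundance between genes.

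**Figure D1:**
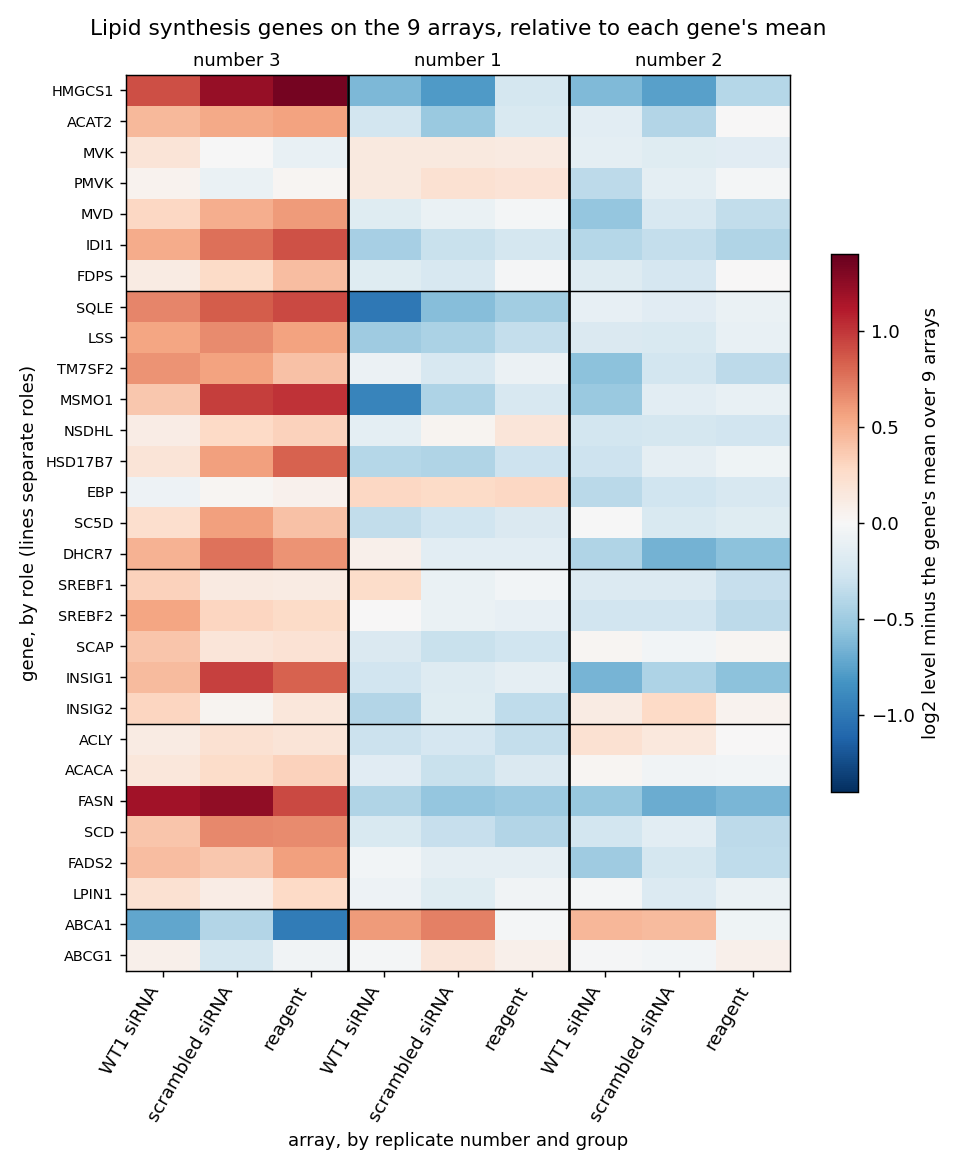
Log2 expression of the 29 genes on each of the 9 arrays, as the deviation from the gene's own mean over the arrays (colour scale in log2 units), with genes in rows by role and arrays in columns by replicate number and, within a number, by group. Most enzyme rows are higher in the number 3 columns whatever the group, and ABCA1 is lower there. EBP and PMVK are higher in number 1 than in number 3 in all 3 groups, MVK in 2 groups, and ACLY is higher in number 2 than in number 3 with WT1 siRNA.

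The differences between replicate numbers were tested in the same limma fit, with the group as the other term. In the F test between numbers 28 of the 29 genes passed, where 52.1% of all genes did, and ABCG1 did not (adjusted p = 0.369). The range of the 3 number means had a median of 0.831 over the 29 genes and 0.248 over all genes. Among genes with a mean level of at least 6, whose median range was 0.312 over all genes, the 27 genes from this set had 0.831. By contrast, the range of the 3 group means had a median of 0.134 over the 29 genes and 0.116 over all genes. The range between numbers exceeded that between groups in 29 of 29 genes, and in 80.9% of all genes.

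By the brightest probe sets, number 3 gave the highest mean for 24 of the 29 genes, where 26.1% of all genes had theirs in number 3. Number 1 gave the highest mean for 5 (EBP, PMVK, MVK, ABCA1 and ABCG1) and number 2 for 0. The pairwise tests were added after the F test had been seen. Number 3 against number 1 called 23 of the 29 genes higher and 2 lower, where 21.8% of all genes were called higher and 17.4% lower. Against number 2, 23 genes were higher and 1 lower, where 11% of all genes were called higher and 12.2% lower. The median difference over the 29 genes was 0.56 against number 1 and 0.671 against number 2, beside -0.0198 and -0.0257 over all genes. Number 2 against number 1 did not lean upward: 7 genes were called higher and 11 lower, where the shares of all genes were 23.7% and 15.5%. More of the 29 genes were thus called lower than higher, unlike all genes. The median was -0.0462, beside -0.016 over all genes. Number 2 gave the lowest mean for 16 of the 29 genes, and for 3510 of all 11963 genes.

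HMGCS1, the synthase that makes HMG-CoA at the start of the mevalonate arm, differed most. It measured 8.53, 8.54 and 10.07 with WT1 siRNA, 8.37, 8.41 and 10.39 with scrambled siRNA and 8.92, 8.76 and 10.50 with reagent (numbers 1, 2 and 3). The number 3 array was the highest of each group, and the 3 number 3 arrays did not overlap the other 6. HMGCS1 was 1.71 ± 0.0964 (SE) higher in number 3 than in number 1 (3.28-fold, adjusted p = 5.72e-06) and 1.75 higher than in number 2 (3.36-fold, adjusted p = 2.64e-05). Its range ranked 13 among the 11963 genes.

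FASN, the synthase that assembles palmitate, followed closely at rank 14. It measured 8.68, 8.57 and 10.27 with WT1 siRNA, 8.55, 8.40 and 10.34 with scrambled siRNA and 8.59, 8.46 and 10.02 with reagent. Again the number 3 arrays stood apart, by 1.61 ± 0.0783 against number 1 (3.04-fold) and 1.73 against number 2 (3.33-fold). A second, dimmer FASN probe set, with a mean of 4.93, did not differ by the test (-0.09 and 0.07, adjusted p = 0.378 and 0.542).

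SQLE, the squalene epoxidase, measured 8.40, 9.28 and 10.08 with WT1 siRNA, 8.81, 9.24 and 10.25 with scrambled siRNA and 8.92, 9.31 and 10.32 with reagent. By this brightest probe set number 3 was above both others, by 1.51 (2.85-fold) against number 1 and 0.94 (1.92-fold) against number 2. Number 2 was also above number 1. A second SQLE probe set, with a mean of 8.46, gave 0.156 against number 1, which did not pass (adjusted p = 0.162, limma), and 0.74 against number 2. On it number 2 lay below number 1, at 7.942 to 8.112 beside 8.445 to 8.699. The third, with a mean of 6.82, gave 2.47 and 1.81. MSMO1 was 1.31 ± 0.0705 higher in number 3 than in number 1 (2.48-fold) and 1.04 higher than in number 2 (2.06-fold). INSIG1, the sterol-dependent anchor of SCAP and itself an SREBP target, was 0.93 ± 0.0817 (1.91-fold) and 1.29 (2.45-fold) higher. By the brightest probe sets, the adjusted p-values of SQLE, MSMO1 and INSIG1 lay between 4.95e-06 and 0.000167.

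The other enzymes followed by role, counted by their brightest probe sets. Of all genes, 21.8% were called higher in number 3 than in number 1 and 11% than in number 2. Of the mevalonate arm, 5 of 7 genes were higher in number 3 than in number 1 and 5 of 7 than in number 2. IDI1, the isopentenyl diphosphate isomerase, was 1.07 and 1.11 higher. The kinases MVK and PMVK were the 2 members of the arm without their highest mean in number 3. For MVK this held only for its brightest probe set. The others were higher in number 3 than in numbers 1 and 2, by 0.56 and 0.97 and by 0.10 and 0.35. Of the steps between squalene and cholesterol, 8 of 9 genes were higher than in number 1 and 9 of 9 than in number 2. LSS, which closes the sterol rings, was 1.02 and 0.77 higher and DHCR7, the reductase of the last step, 0.70 and 1.18, while EBP, the sterol isomerase, differed by -0.27 from number 1 (adjusted p = 0.00546) and by 0.30 from number 2 (adjusted p = 0.00639). Of fatty acid and glycerolipid synthesis, 6 of 6 genes were higher than in number 1 and 5 of 6 than in number 2. The 6 include SCD, whose other probe sets were lower in number 3 than in number 1, as given below. A second probe set of ACACA and of FASN also had the opposite sign against number 1 (-0.16 and -0.09). Neither passed (adjusted p = 0.0655 and 0.378, limma).

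The genes of SREBP control are described next, since their proteins take part in controlling transcription of the enzyme genes. SREBF2, which encodes the factor most tied to cholesterol genes, measured 7.72, 7.45 and 8.26 with WT1 siRNA, 7.62, 7.45 and 8.01 with scrambled siRNA and 7.60, 7.35 and 7.99 with reagent. Number 3 was the highest in each group, by 0.44 against number 1 (1.36-fold) and 0.67 against number 2 (1.59-fold). SREBF1, which encodes the factor tied to fatty acid genes, measured 7.19, 6.75 and 7.26 with WT1 siRNA, 6.85, 6.74 and 7.06 with scrambled siRNA and 6.90, 6.62 and 7.05 with reagent. It was 0.42 higher in number 3 than in number 2 (adjusted p = 0.00283), and its 0.15 against number 1 did not pass (adjusted p = 0.134).

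SCAP, the escort of the SREBP proteins, measured 8.001, 8.23 and 8.59 with WT1 siRNA, 7.89, 8.16 and 8.37 with scrambled siRNA and 7.92, 8.23 and 8.41 with reagent, so that number 3 was again the highest in each group. INSIG2, the second anchor, measured 6.49, 7.02 and 7.20, then 6.73, 7.17 and 6.94, then 6.55, 6.95 and 7.06 in the same order of groups, and its number 3 arrays overlapped those of number 2.

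The export pumps did not share this pattern. ABCA1 measured 7.45, 7.32 and 6.13 with WT1 siRNA, 7.56, 7.30 and 6.44 with scrambled siRNA and 6.82, 6.80 and 5.88 with reagent. The number 3 array was the lowest of each group, and the number 3 arrays did not overlap the others. ABCA1 was 2.19-fold lower in number 3 than in number 1 (log2 -1.13 ± 0.0814 SE, adjusted p = 1.79e-05) and 1.98-fold lower than in number 2 (adjusted p = 8.22e-05). A second ABCA1 probe set gave -1.38 and -1.20, and the other, dim one gave -0.08 in both. ABCG1 measured 4.62, 4.62 and 4.71 with WT1 siRNA, 4.81, 4.60 and 4.40 with scrambled siRNA and 4.71, 4.71 and 4.59 with reagent. It lay at the 12.2 to 19.1 percentile of probe sets on the arrays, and its arrays overlapped throughout.

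In all, the 3 number 3 arrays lay above all 6 others in 20 of the 29 genes, where this held for 7.97% of all genes, and below them in 1 gene (ABCA1), where this held for 7.22%. They lay above in 5 of 7 genes of the mevalonate arm, 7 of 9 between squalene and cholesterol, 3 of 5 of SREBP control, 5 of 6 of fatty acid and glycerolipid synthesis and 0 of 2 of sterol export. The ACTB 3′ to 5′ difference given above was different for each number, and its part in these results was not tested. Some markers of cell state differed between numbers as well. Of 9 glioma and astrocyte markers, 2 were higher and 2 lower in number 3 than in number 1, where 21.8% and 17.4% of all genes were. Against number 2, 4 were higher and 1 lower, where 11% and 12.2% of all genes were. By its brighter probe set GFAP, the astrocyte filament, was 1.93 higher than in number 1 (3.81-fold) and 2.60 higher than in number 2 (6.06-fold). The other GFAP probe set, with a mean of 6.28, did not share this rise. It measured 6.076 to 6.513 on number 3 arrays, 6.394 to 6.479 on number 1 arrays and 6.104 to 6.215 on number 2 arrays. S100B and CD44 were the 2 markers lower than in number 1 (-0.64 and -0.20, adjusted p = 0.00823 and 0.0492, limma). The mean level over the 9 markers was 8.42 to 8.64 on number 3 arrays, 8.13 to 8.54 on number 1 arrays and 7.78 to 8.03 on number 2 arrays, and that over 4 leukocyte markers was 5.31 to 5.46, 5.41 to 5.51 and 5.35 to 5.45. The part of these differences in the results was not tested.

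**Figure D2:**
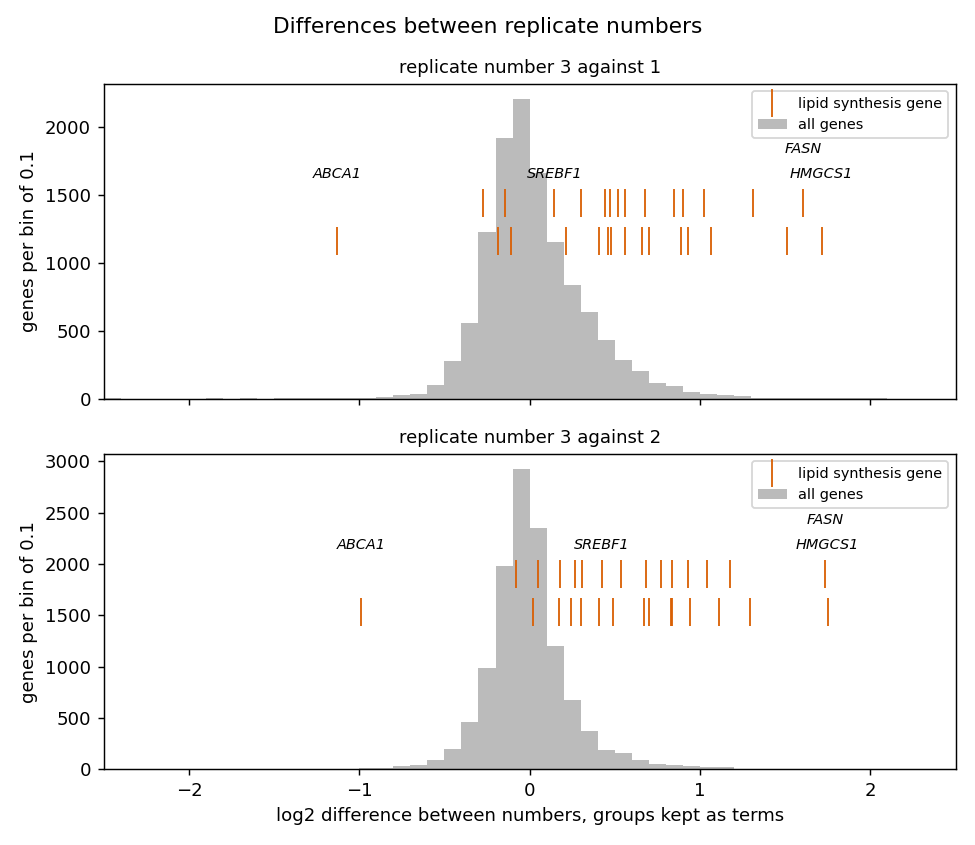
Log2 difference of number 3 from number 1 (top) and from number 2 (bottom), with the groups kept as terms, as a histogram of all 11963 genes (grey, genes per bin) and a tick for each of the 29 genes (orange, set at 2 heights only to keep them apart). HMGCS1 and FASN lie farthest right at 1.71 and 1.61 (top) and 1.75 and 1.73 (bottom), and ABCA1 lies farthest left of the 29 at -1.13 and -0.99.

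Other probe sets of the same genes were set beside the values used. The 28 further probe sets belong to 18 of the genes, and 27 had the same sign as the one used for number 3 against number 2, but 19 for number 3 against number 1. SCD was the clearest exception. Its brightest probe set was 0.89 higher in number 3 than in number 1, and its other 3 probe sets were lower there, with differences of -0.38, -1.503 and -1.53 (adjusted p = 0.000891, 8.05e-06 and 3.49e-06), although all 4 were higher in number 3 than in number 2. The sign of EBP against number 1 also turned with the probe set, from -0.27 in the one used to 0.23 in a second (adjusted p = 0.0172), and the other gave -0.05 (adjusted p = 0.574). A dimmer LSS probe set likewise differed by -0.63 from number 1 (adjusted p = 0.000978) and by 0.68 from number 2. The direction of SCD between numbers 3 and 1 is therefore not settled by these arrays. INSIG1 and HMGCS1 kept their sign in every probe set, with differences of 1.09 and 1.73 in the other INSIG1 sets and 0.75 in the other HMGCS1 set against number 1.

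The promoters of genes that differed together between numbers are shown with the short sequence motifs known from sterol-regulated promoters. RefSeq sequence (GRCh38.p14) of 250 bases before to 50 bases after the transcription start was at hand for 25 of the 29 genes, not for ABCG1, ACAT2, FASN and SQLE. Capitals mark CCAAT, the NF-Y motif, on either strand (ATTGG on the other), and TCACNCCAC, a form of the sterol regulatory element. MSMO1, called in the group comparisons, lies at chr4:165327419-165327718, plus strand. HMGCS1 lies at chr5:43313363-43313662, minus strand, INSIG1 at chr7:155297628-155297927, plus strand, and ABCA1, which went the other way, at chr9:104928106-104928405, minus strand. SREBF2 at chr22:41832855-41833154, plus strand was added after its match to the sterol regulatory element had been seen. Each is printed 5′ to 3′ along the strand of the gene.
MSMO1: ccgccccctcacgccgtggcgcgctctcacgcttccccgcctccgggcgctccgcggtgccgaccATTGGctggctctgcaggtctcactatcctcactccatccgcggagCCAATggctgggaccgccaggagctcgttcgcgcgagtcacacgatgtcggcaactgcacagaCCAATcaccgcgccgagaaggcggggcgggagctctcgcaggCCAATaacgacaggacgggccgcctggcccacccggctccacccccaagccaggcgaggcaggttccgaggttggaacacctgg
HMGCS1: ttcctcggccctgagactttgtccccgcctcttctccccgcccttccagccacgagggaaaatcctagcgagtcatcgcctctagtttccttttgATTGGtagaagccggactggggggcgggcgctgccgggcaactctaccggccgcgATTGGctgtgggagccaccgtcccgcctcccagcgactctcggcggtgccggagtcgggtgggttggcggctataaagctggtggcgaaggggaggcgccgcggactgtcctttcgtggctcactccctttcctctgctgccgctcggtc
INSIG1: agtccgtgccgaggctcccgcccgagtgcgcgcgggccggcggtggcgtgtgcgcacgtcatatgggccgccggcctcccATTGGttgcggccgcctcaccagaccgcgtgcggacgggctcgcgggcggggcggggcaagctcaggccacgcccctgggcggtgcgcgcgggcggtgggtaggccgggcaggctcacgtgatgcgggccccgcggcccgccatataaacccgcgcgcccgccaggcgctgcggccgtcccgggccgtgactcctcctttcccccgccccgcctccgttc
SREBF2: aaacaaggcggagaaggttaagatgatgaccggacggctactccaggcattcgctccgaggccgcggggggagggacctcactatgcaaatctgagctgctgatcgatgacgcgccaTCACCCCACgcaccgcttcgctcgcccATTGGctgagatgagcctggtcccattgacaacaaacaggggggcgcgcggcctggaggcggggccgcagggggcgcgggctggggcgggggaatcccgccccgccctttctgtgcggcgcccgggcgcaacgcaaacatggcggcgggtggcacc
ABCA1: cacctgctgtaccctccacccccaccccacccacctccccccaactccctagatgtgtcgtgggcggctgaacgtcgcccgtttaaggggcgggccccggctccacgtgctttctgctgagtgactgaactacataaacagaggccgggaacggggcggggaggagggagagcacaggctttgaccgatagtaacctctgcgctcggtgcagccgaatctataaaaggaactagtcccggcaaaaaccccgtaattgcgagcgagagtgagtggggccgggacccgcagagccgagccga

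The MSMO1 promoter held 4 NF-Y matches, HMGCS1 2, INSIG1 and SREBF2 1 each, and the ABCA1 window none. The most in any of the 25 promoters was 5, in NSDHL and MVK. By their brightest probe sets NSDHL was higher in number 3 than in both others, and MVK was not called against either. IDI1, ACACA, FADS2, SCAP and LPIN1 were called higher in number 3 than in both others and held no NF-Y match. A link between matches and the differences between numbers was not tested. CCAAT was found in 16 of 25 promoters (64%), and in 37.3% of the 9563 promoters of genes on the array and 35.7% of all 27305 promoters in the table. At least 2 matches were found in 11 of 25 (44%), and in 13.1% of promoters of genes on the array. GGGCGG, the SP1 motif, was found in 23 of 25 (92%) beside 63.1% and 44.6%, and CACGTG, an E-box, in 5 of 25 (20%) beside 9.51% and 7.43%. TCACNCCAC was found in 1 of 25 (4%) beside 1.05% and 1.15%. GCGTGGGAG, a WT1 motif, and AGGTCA, a nuclear receptor half-site motif, were found in none of the 25, and in 0.92% and 10.3% of promoters of genes on the array. Both strands were searched, no marked matches overlapped in the 5 promoters printed, and a match is a run of letters, not a shown binding site.

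The comparison of WT1 siRNA with scrambled siRNA sets cultures with WT1 RNA lowered in part beside cultures given a non-targeting siRNA. Effects of lower WT1 and other effects of the WT1 siRNA cannot be told apart here. By the brightest probe sets, MSMO1 was the 1 gene of 29 called lower, where 2.32% of all genes were, and 0 were called higher, where 1.39% were (3.7% in either direction). It measured 9.16, 9.57 and 10.46 with WT1 siRNA, 9.65, 9.93 and 11.05 with scrambled siRNA and 9.86, 9.98 and 11.09 with reagent, or 9.73 ± 0.67, 10.21 ± 0.74 and 10.31 ± 0.68 (mean ± SD, n = 3 each). Over all numbers the groups overlapped, because number 3 was high in each, but within each number the WT1 siRNA array was the lowest of the 3. MSMO1 fell by 0.48 ± 0.0705 (SE) against scrambled siRNA (1.39-fold, adjusted p = 0.00903, limma), and the differences within numbers 1, 2 and 3 were -0.49, -0.36 and -0.59.

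The MSMO1 call against scrambled siRNA was lost without scrambled siRNA replicate 2 (adjusted p = 0.0702), without scrambled siRNA replicate 3 (adjusted p = 0.0528) and without all arrays of number 2 (adjusted p = 0.113) or number 3 (adjusted p = 0.0622). Without the number as a block, 0 of the 29 genes passed in any of the 3 comparisons, and the adjusted p of MSMO1 was 1.

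The remaining 28 genes did not pass against scrambled siRNA by their brightest probe set. INSIG1 came nearest, with 9.70, 9.32 and 10.42 with WT1 siRNA, 9.80, 9.55 and 10.93 with scrambled siRNA and 9.85, 9.40 and 10.80 with reagent. It was below the scrambled siRNA array in each number, with differences of -0.10, -0.23 and -0.51, and the fitted difference of -0.28 ± 0.0817 had an adjusted p of 0.114, while the other INSIG1 probe sets gave -0.01 (adjusted p = 0.98) and -0.09 (adjusted p = 0.623). MVD, the mevalonate diphosphate decarboxylase, measured 6.09, 5.71 and 6.55 with WT1 siRNA against 6.17, 6.04 and 6.77 with scrambled siRNA, a difference of -0.21 (adjusted p = 0.149). LPIN1, a phosphatidate phosphatase of glycerolipid synthesis, measured 9.10, 9.15 and 9.39 against 9.003, 8.98 and 9.28, a difference of 0.13 (adjusted p = 0.303). SREBF1 differed by 0.18 (adjusted p = 0.229) and FASN by 0.08 (adjusted p = 0.723). The median difference over the 29 genes was -0.0372 and over all genes -0.00155, with 19 of 29 genes below 0 (65.5%), where 50.6% of all genes were. In all 3 numbers 5 genes were lower and 4 higher, where 20.1% and 16.4% of all genes were. Of the glioma and astrocyte markers, SOX2 was the 1 of 9 called in this comparison (0.75 higher, adjusted p = 0.00282), and its part in these values was not tested.

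SCD, the desaturase that makes oleate from stearate, gave different values by probe set. The brightest differed by -0.09 between WT1 siRNA and scrambled siRNA (adjusted p = 0.695) and differed by 0.01 from reagent (adjusted p = 0.967). Of the 3 dimmer ones, the first measured 9.52, 7.63 and 8.11 with WT1 siRNA, 9.15, 7.14 and 7.70 with scrambled siRNA and 9.09, 7.06 and 7.38 with reagent, so that the WT1 siRNA array was the highest within each number while the groups overlapped over all numbers. It was 0.42 ± 0.0714 (SE) higher with WT1 siRNA than with scrambled siRNA (adjusted p = 0.0165) and 0.58 higher than with reagent (adjusted p = 0.00884). The second was 0.27 higher than with scrambled siRNA (adjusted p = 0.0415) and 0.38 higher than with reagent (adjusted p = 0.0207), and the other gave 0.18 (adjusted p = 0.386) and 0.41 (adjusted p = 0.0687). With the mean of its probe sets SCD was 0.193 higher than with scrambled siRNA, which did not pass (adjusted p = 0.107), and 0.344 higher than with reagent (adjusted p = 0.0245).

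All 4 of these probe set calls were lost without the block (adjusted p = 1) and without number 2 (adjusted p = 0.209 to 0.359). The call of the first against scrambled siRNA was also lost without scrambled siRNA replicate 1 (adjusted p = 0.0784), WT1 siRNA replicate 2 (adjusted p = 0.0871) or scrambled siRNA replicate 2 (adjusted p = 0.122), and that against reagent without WT1 siRNA replicate 2 (adjusted p = 0.0606), reagent replicate 2 (adjusted p = 0.0785) or number 3 (adjusted p = 0.0511). The call of the second against scrambled siRNA was lost without any 1 of the 9 arrays (adjusted p = 0.0516 to 0.169), without number 1 (adjusted p = 0.133) or number 3 (adjusted p = 0.15). Its call against reagent was lost without reagent replicate 1, any 1 number 2 array, WT1 siRNA replicate 3 or reagent replicate 3 (adjusted p = 0.0519 to 0.156), or number 3 (adjusted p = 0.117).

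Against reagent, MSMO1 fell by 0.58 ± 0.0705 with WT1 siRNA (1.49-fold, adjusted p = 0.00854), with differences of -0.70, -0.41 and -0.63 within numbers 1, 2 and 3. By the brightest probe sets it was 1 of 29 called lower, where 1.02% of all genes were, and ABCA1 was the 1 called higher, where 0.376% were (1.4% in either direction). The MSMO1 call was lost without reagent replicate 2 (adjusted p = 0.0721), without number 2 (adjusted p = 0.203) or number 3 (adjusted p = 0.0563), and with only the 2 groups compared in the fit (adjusted p = 0.0611). MSMO1 differed by -0.10 between scrambled siRNA and reagent (adjusted p = 0.664).

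The mevalonate arm had a median of -0.189 against reagent, with 6 of 7 genes below 0, where 46.1% of all genes were, and 0 of the 7 passed. Its smallest p-value was that of HMGCS1, which differed by -0.35 (adjusted p = 0.126), and FDPS differed by -0.22 (adjusted p = 0.131). FDPS measured 10.21, 10.20 and 10.50 with WT1 siRNA, 10.16, 10.15 and 10.65 with scrambled siRNA and 10.37, 10.39 and 10.81 with reagent, so that both siRNA arrays lay below the reagent array in each number. Between squalene and cholesterol the median was -0.099, and HSD17B7, a sterol ketoreductase, measured 8.41, 8.52 and 8.99 with WT1 siRNA against 8.52, 8.75 and 9.63 with reagent (-0.33, adjusted p = 0.137). SREBF1 differed by 0.21 (adjusted p = 0.198) and FASN by 0.15 (adjusted p = 0.418). Over the 29 genes the median was -0.0561 and over all genes 0.0101. An unadjusted p under 0.05 was reached by 12 of the 29 (41.4%), where 15.9% of all genes reached it, while 10 were lower in all 3 numbers and 5 higher, where 17.4% and 17% of all genes were.

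By its brightest probe set ABCA1 differed from reagent with both siRNAs. With WT1 siRNA it was 0.46 ± 0.0814 higher than with reagent (1.38-fold, adjusted p = 0.0312), by 0.62, 0.52 and 0.25 within numbers 1, 2 and 3. With scrambled siRNA it was 0.60 ± 0.0814 higher than with reagent (1.52-fold, adjusted p = 0.0123), by 0.74, 0.51 and 0.56. In each number both siRNA arrays lay above the reagent array, while over all numbers the groups overlapped. The 2 siRNAs differed in ABCA1 by -0.14 ± 0.0814 (adjusted p = 0.457), and the 2 comparisons with reagent share the same reagent arrays. A second ABCA1 probe set was also higher with scrambled siRNA than with reagent (0.72, adjusted p = 0.0219). This call was lost without 5 of the 9 arrays, each left out in turn (adjusted p up to 0.169, limma). With WT1 siRNA against reagent the second probe set did not pass, at means of 6.10 and 5.61. The other, dim one was not higher with scrambled siRNA than with reagent (-0.02, adjusted p = 0.959).

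ABCA1 was the 1 gene of 29 called higher with scrambled siRNA against reagent, where 0.644% of all genes were, and 0 were called lower, where 0.568% were (1.21% in either direction). This call passed in 13 of 21 alternative settings, and the call for WT1 siRNA against reagent passed in 8 of 21. For scrambled siRNA against reagent, the call ended, with the adjusted p in brackets, without scrambled siRNA replicate 1 (0.0889), reagent replicate 1 (0.0531), scrambled siRNA replicate 2 (0.0672), reagent replicate 2 (0.111), scrambled siRNA replicate 3 (0.0558), and also without number 1 (0.0743) or number 2 (0.25). For WT1 siRNA against reagent, it ended without WT1 siRNA replicate 1 (0.0635), scrambled siRNA replicate 1 (0.0537), reagent replicate 1 (0.114), WT1 siRNA replicate 2 (0.142), scrambled siRNA replicate 2 (0.0574), reagent replicate 2 (0.168), scrambled siRNA replicate 3 (0.0563), reagent replicate 3 (0.0571), and also without number 1 (0.109) or number 2 (0.359), after quantile normalisation (0.0651) and with the 2 groups alone (0.122).

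Other genes had smaller differences between scrambled siRNA and reagent, and none of them passed. HMGCS1 differed by -0.34 (adjusted p = 0.163), and its difference between WT1 siRNA and reagent, given above, rests on the same reagent arrays. HSD17B7 measured 8.38, 8.69 and 9.39 with scrambled siRNA (-0.15 against reagent, adjusted p = 0.605). LPIN1 differed by -0.13 (adjusted p = 0.396) and INSIG2 by 0.10 (adjusted p = 0.773). The median was -0.0309 over the 29 genes and 0.0128 over all genes, and 10 genes were lower and 4 higher in all 3 numbers, where 17.4% and 21.7% of all genes were.

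**Figure D3:**
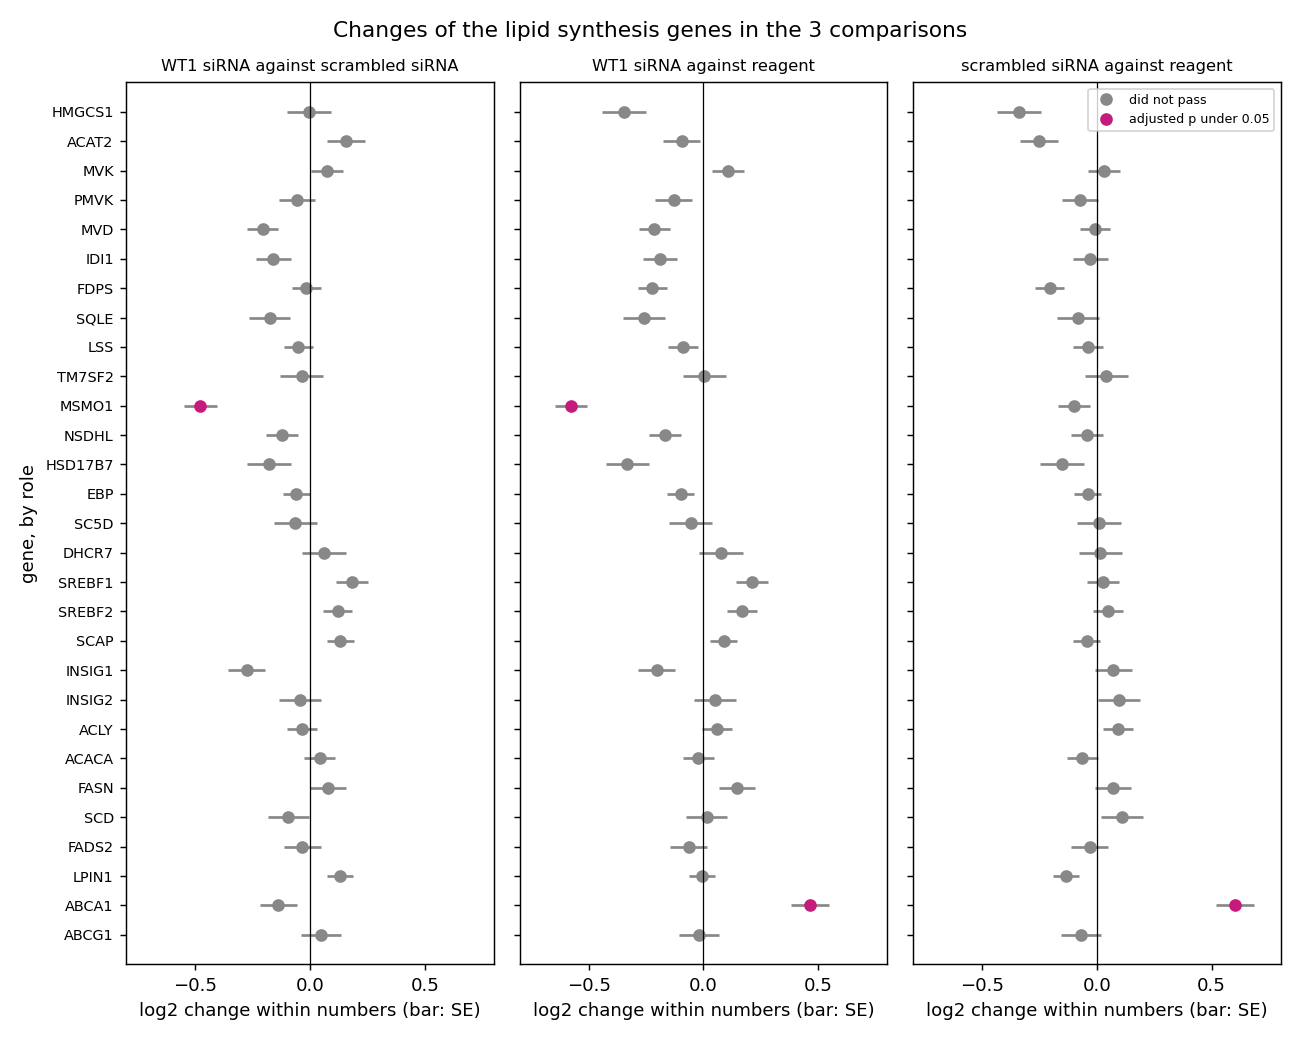
Log2 change of each of the 29 genes in the 3 group comparisons, fitted within replicate numbers, with standard errors, genes in rows by role. MSMO1 is the gene farthest left with WT1 siRNA against either control, and ABCA1 the gene farthest right with either siRNA against reagent.

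**Figure D4:**
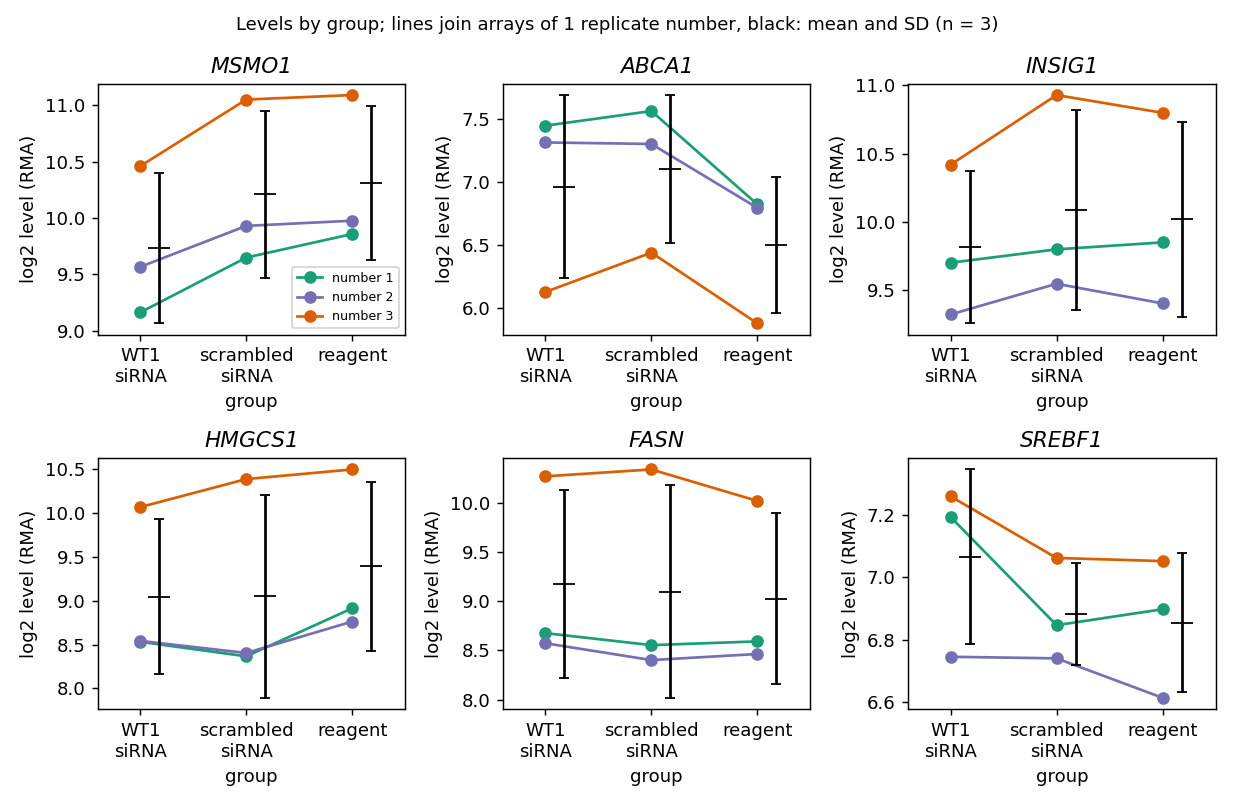
Log2 expression on every array for MSMO1, ABCA1, INSIG1, HMGCS1, FASN and SREBF1 by group, with a coloured point per array, lines joining the arrays of 1 replicate number, and the group mean with its SD in black (n = 3). The line of number 3 lies above the other lines for MSMO1, INSIG1, HMGCS1, FASN and, by less, SREBF1. It lies below them for ABCA1, while MSMO1 is lowest with WT1 siRNA along each line.

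A further list of 35 genes of lipid uptake, storage, elongation and control was set beside these, and 24 of them had a probe set of their own. With WT1 siRNA against scrambled siRNA 3 of the 24 were higher and 0 lower, where 1.39% and 2.32% of all genes were. LIPA, the lysosomal acid lipase that frees cholesterol from esters, measured 9.66, 9.79 and 9.45 with WT1 siRNA against 9.18, 9.33 and 9.27 with scrambled siRNA and 9.23, 9.28 and 9.20 with reagent. Its WT1 siRNA arrays lay above all control arrays, by 0.37 against scrambled siRNA (adjusted p = 0.0264) and 0.40 against reagent (adjusted p = 0.0342). ELOVL6, a fatty acid elongase, was 0.34 higher against scrambled siRNA (adjusted p = 0.0341) and DGAT1, which makes triglyceride, 0.34 (adjusted p = 0.0341).

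Against reagent, ACSL4, an acyl-CoA synthetase that prefers arachidonate, fell by 0.47 (adjusted p = 0.0307) and LIPA was the 1 gene of 24 higher. Of all genes, 1.02% were called lower in this comparison and 0.376% higher. With scrambled siRNA against reagent 0 of the 24 passed in limma, where 1.21% of all genes did. An unadjusted p under 0.05 was reached by 7 (29.2%), where 13.1% of all genes reached it. The smallest p-values were those of ELOVL6 (-0.20, adjusted p = 0.272), ACSL4 (-0.24, adjusted p = 0.276) and GGPS1, which makes geranylgeranyl diphosphate (-0.17, adjusted p = 0.31). Each of these further calls was lost without the block, and each was also lost when single arrays were left out in turn. With WT1 siRNA against scrambled siRNA, LIPA was lost without 5 single arrays (adjusted p 0.0527 to 0.161, limma). ELOVL6 was lost without 6 (0.0692 to 0.188) and DGAT1 without 7 (0.0579 to 0.19). With WT1 siRNA against reagent, LIPA was lost without 8 (0.0508 to 0.203) and ACSL4 without 6 (0.0685 to 0.151). Each call was also lost with the compared groups alone (adjusted p 0.0521 to 0.122). After centring, ELOVL6 against scrambled siRNA (0.0536) and LIPA against reagent (0.057) were lost. ELOVL6 was lost with the mean of its probe sets as well (0.0647).

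Between numbers, the 24 further genes were counted in the same way. Number 3 against number 1 had 8 higher and 3 lower, where 21.8% and 17.4% of all genes were. Number 3 against number 2 had 5 of each, where 11% of all genes were higher and 12.2% lower. The number 3 arrays lay above all others in 2 of 24, where this held for 7.97% of all genes. SLC25A1, the citrate carrier that supplies acetyl units for lipid synthesis, was 0.74 and 1.03 higher in number 3. MBTPS2, a protease that releases SREBP, was lower in number 3 than in number 1 (-0.81, adjusted p = 6.3e-05) and did not differ by the test from number 2 (-0.12, adjusted p = 0.315).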

How the data were processed

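RNA of 9 U251 cultures was measured on Affymetrix arrays. The authors deposited 1 log2 value for each probe set and array, made with RMA (background correction, normalisation between arrays and summary of probes) per the submitters' processing notes, and RMA pulls the arrays toward 1 distribution (array medians 6.45 to 6.53). Of 22277 probe sets, 62 chip controls were left out and 22215 tested. In the probe annotation used here 19064 had 1 gene symbol, 1043 several and 2108 none. Array data have no read depth, and the number of arrays limits the precision.

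Groups and replicate numbers came from the sample titles. The series calls the arrays biological triplicates. All arrays were fitted together with limma 3.58.1 in R 4.3.3 (lmFit, contrasts.fit and eBayes, two-sided), with the number as a fixed term (4 residual degrees of freedom), because the genes were to be compared within numbers, and p-values were adjusted by the Benjamini-Hochberg method. Deviations from the group means correlated at 0.647 to 0.849 in the 9 pairs of arrays of the same number and at -0.611 to -0.0311 in the 18 other pairs. The procedure was tested on simulated data. Alternatives were no block, each array or number left out, the compared groups alone, centring, quantile normalisation, a minimum mean level of 6, variance trend, robust fit, array weights and the mean of a gene's probe sets. Figures were drawn with matplotlib 3.10.9.

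The genes and lists were chosen with earlier results of these data known, so counts over them are descriptions. Array values were given for genes called in a group comparison, for SREBP control and sterol export, for the smallest p of each role list in each comparison, and for the 5 genes with the greatest range between numbers. Further pathway genes were named where they passed, or otherwise the 3 with the smallest p. SCD, LSS, EBP, FDPS, IDI1, DHCR7, SLC25A1, MBTPS2, GFAP, S100B, CD44 and SOX2 were named after their values were seen.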

Additional observations from a re-analysis of the deposited data

How the results depend on the processing

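Under 21 alternatives no group change of a named gene that had passed turned its direction. Between numbers, under 16 alternatives added after the results were seen, 1 difference that had passed turned: SCD between numbers 3 and 1 was -0.631 with the mean of probe sets. Without the replicate number as a block ("no replicate block"), 0 of the 29 genes passed in each of the 3 group comparisons, and 0 had an unadjusted p under 0.05, so every group call rests on comparing within numbers. For WT1 siRNA against scrambled siRNA the count of 1 became 2 with a variance trend and 2 with trend and robust fit, through INSIG1 (adjusted p = 0.0436 and 0.0401), and lay between 0 and 1 when arrays or numbers were left out. For WT1 siRNA against reagent the count of 2 became 0 with the compared groups alone, 1 after quantile normalisation and 3 with a variance trend, with trend and robust fit or with the mean of probe sets, and lay between 0 and 2 with arrays or numbers left out. For scrambled siRNA against reagent the count of 1 lay between 0 and 1. The median difference of the 29 genes between scrambled siRNA and reagent, -0.0309, was -0.0442 after centring, -0.0157 with array weights and -0.013 with the mean of probe sets, and -0.0455 to -0.00589 with arrays or numbers left out. The cause of these shifts was not tested. The differences between numbers depended little on these settings: with arrays left out, 26 to 28 genes passed the F test, 22 to 23 were higher in number 3 than in number 1 and 21 to 23 than in number 2. The number and the day, plating or batch it may stand for cannot be told apart.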

Other observations

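Differences between numbers follow for further genes of the set. ACAT2, which makes acetoacetyl-CoA, was 0.85 higher in number 3 than in number 1 and 0.70 higher than in number 2. HSD17B7 was 0.90 and 0.68 higher in the same comparisons, and SC5D, a sterol desaturase, 0.68 and 0.54. FADS2, a fatty acid desaturase, was 0.56 and 0.83 higher, and ACACA, which makes malonyl-CoA, 0.47 and 0.27. TM7SF2 was 0.66 and 0.93 higher, MVD 0.56 and 0.83, FDPS 0.41 and 0.41, and LPIN1 0.30 and 0.30. SCAP was 0.52 and 0.25 higher, and NSDHL, a sterol dehydrogenase, 0.21 and 0.49. INSIG2 was 0.48 higher than in number 1 and differed by 0.02 from number 2 (adjusted p = 0.918). Single arrays decided 3 of these calls: ACACA against number 2 was lost without scrambled siRNA or reagent replicate 2 or 3 (adjusted p = 0.0772 to 0.0986), SCAP against number 2 without WT1 siRNA or scrambled siRNA replicate 2 or 3 (adjusted p = 0.0512 to 0.0993), and NSDHL against number 1 without WT1 siRNA replicate 1, any 1 scrambled siRNA array or reagent replicate 3 (adjusted p = 0.061 to 0.136). After quantile normalisation NSDHL differed by 0.0869 from number 1 (adjusted p = 0.358). With the mean of its probe sets ACACA did not pass against number 1 (0.156, adjusted p = 0.0543) or number 2 (0.0715, adjusted p = 0.403). ACLY was 0.46 higher than in number 1 and differed by 0.05 from number 2, which did not pass (adjusted p = 0.657). PMVK differed by -0.18 from number 1 (adjusted p = 0.0976) and by 0.17 from number 2 (adjusted p = 0.167), and MVK by -0.11 (adjusted p = 0.24) and 0.18 (adjusted p = 0.098). The other MVK probe sets differed by 0.56 (adjusted p = 0.000422) and 0.10 (adjusted p = 0.35) from number 1, and by 0.97 (adjusted p = 6.68e-05) and 0.35 (adjusted p = 0.0123) from number 2.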
